A study of Mus musculus with 6 samples.

Results

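Corin and the natriuretic peptide system were followed in 2 neighbouring pieces of the mouse midbrain. The members were Corin, a membrane-bound protease, Furin, a further protease that cuts peptide precursors, the peptide genes Nppa, Nppb and Nppc, and the receptor genes Npr1, Npr2 and Npr3. Every probe set (the group of array probes that reports a gene) annotated to exactly 1 of these 8 symbols was taken, which gave 8 of 18193 genes measured this way and 10 of the 45037 probe sets tested, 3 for Npr3 and 1 for each of the other genes. Corin was selected on its measured difference between the regions, the largest in these same arrays, and the other genes were taken with it for their place in the pathway. The values of all 8 genes are therefore a description. No p is given for them, and where the text counts which of them passed the threshold used for all probe sets, that count is a description too.

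The arrays came from C57BL/6 embryos at embryonic day 10.5, of mixed sex and with no treatment or mutation named in the labels. The floor plate group was the ventral midline strip of the midbrain, and the ventral lateral group was the tissue next to it, dissected without overlap. Each region had 3 samples, and each sample pooled tissue from 6 embryos. From each pool 5 ng of total RNA was amplified, tagged with biotin and read on 1 Affymetrix array, so the spread between samples may in part be technical. Nothing says whether pools of the same number shared embryos.

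The natriuretic peptides are made as precursors that proteases cut to the active hormones. In the mouse heart Corin cuts the precursor of atrial natriuretic peptide, and furin cuts the precursor of C-type natriuretic peptide. The receptors of Npr1 and Npr2 are guanylyl cyclases that make cyclic GMP inside the cell, and the receptor of Npr3 takes the peptides up for degradation. In the nervous system, C-type peptide, the Npr2 receptor and the cyclic GMP-dependent kinase of Prkg1 are known for the branching of sensory axons in the embryonic mouse spinal cord, and Corin is known as a surface marker of the midbrain floor plate, from which dopaminergic neurons arise.

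The deposited values are log ratios. The median of the 6 arrays was set to 0 for each probe set, which means that a value tells how an array differs from the others and not how strongly a gene was expressed, and no signal over background can be given. Log2 and higher values for more RNA were assumed. In such tissue samples, fewer cells of a type and less RNA per cell cannot be told apart.

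The labelled regions were checked with marker genes, called where limma's p, adjusted by Benjamini-Hochberg over all probe sets, was under 0.05. Of 19 probe sets for floor plate genes, 16 were higher in floor plate and none lower, including the forkhead gene Foxa2 (log2 difference 1.76) and the LIM homeobox gene Lmx1a (3.71), while Shh passed on neither of its probe sets (1.76 and 0.16). Of 19 for ventrolateral genes, 14 were lower in floor plate and none higher, including the homeobox gene Nkx2-2 (-2.11) and the GABA-synthesising enzyme gene Gad1 (-4.56). The ventral lateral samples were not alike. The mean of the floor plate markers was 0.83 to 0.89 in the floor plate samples, and in ventral lateral replicates 1, 2 and 3 it was -1.21, -0.73 and -1.56. Of the 1218 probe sets called higher in floor plate, 687 (56.4%) had their highest ventral lateral value in replicate 2, against 29.8% of all probe sets.

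Corin was much higher in floor plate than in ventral lateral tissue. On probe set 1419017_at its log2 values were 2.20, 2.40 and 2.49 in floor plate replicates 1, 2 and 3, against -4.87, -2.20 and -4.92 in ventral lateral replicates 1, 2 and 3. The 3 floor plate samples were close together and the regions did not overlap, while ventral lateral replicate 2 stood above the other ventral lateral samples. The floor plate mean was 2.36 ± 0.15 (SD, n = 3), against -4.00 ± 1.56 (SD, n = 3) in ventral lateral tissue. The difference of 6.36 (SE 0.66), which is 82.2-fold, ranked 1 of 45037 probe sets, ahead of the retinaldehyde dehydrogenase gene Aldh1a1 (5.20) and the Wnt enhancer gene Rspo2 (4.66). The lowest floor plate value and the highest ventral lateral value of Corin mirror each other around 0, which follows from the centring.

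Most of what varied in Corin within a region lay on the ventral lateral side. The floor plate samples spanned 0.29 on the log2 scale and the ventral lateral samples 2.72. The SD among ventral lateral samples was larger than that of 99.96% of probe sets, and the SD among floor plate samples larger than that of 49.6%. Ventral lateral replicate 2 was 2.69 above the mean of replicates 1 and 3, which is 6.47-fold. The floor plate mean was above replicate 1 by 7.23, above replicate 2 by 4.56 and above replicate 3 by 7.29. The difference between the regions was 7.26 without replicate 2. The protein-coding neighbours of Corin on chromosome 5 in the RefSeq table did not share a difference of this size, with Commd8 at 0.19 and 0.27 and Nfxl1 at -0.04 to 0.53 over 3 probe sets. Ventral lateral replicate 2 is the sample in which the floor plate markers were also highest among the ventral lateral samples, and the part of this in the result was not tested.

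Furin, which encodes a protease of the secretory pathway that activates many precursors, was higher in floor plate by a small amount. On probe set 1418518_at its log2 values were 0.20, 0.28 and 0.24 in floor plate, against -0.28, -0.33 and -0.20 in ventral lateral tissue. The regions did not overlap and the samples of each region were close together. The floor plate mean was 0.24 ± 0.04 (SD, n = 3), against -0.27 ± 0.07 (SD, n = 3) in ventral lateral tissue. The difference of 0.51 (SE 0.09) is 1.42-fold, and its size was above that of 92.3% of probe sets. Ventral lateral replicate 2 was the lowest of the 3 for Furin, whereas it was the highest for Corin. With so small a difference between the regions, this order cannot show whether Furin shares the spread seen in Corin.

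**Figure D1:**
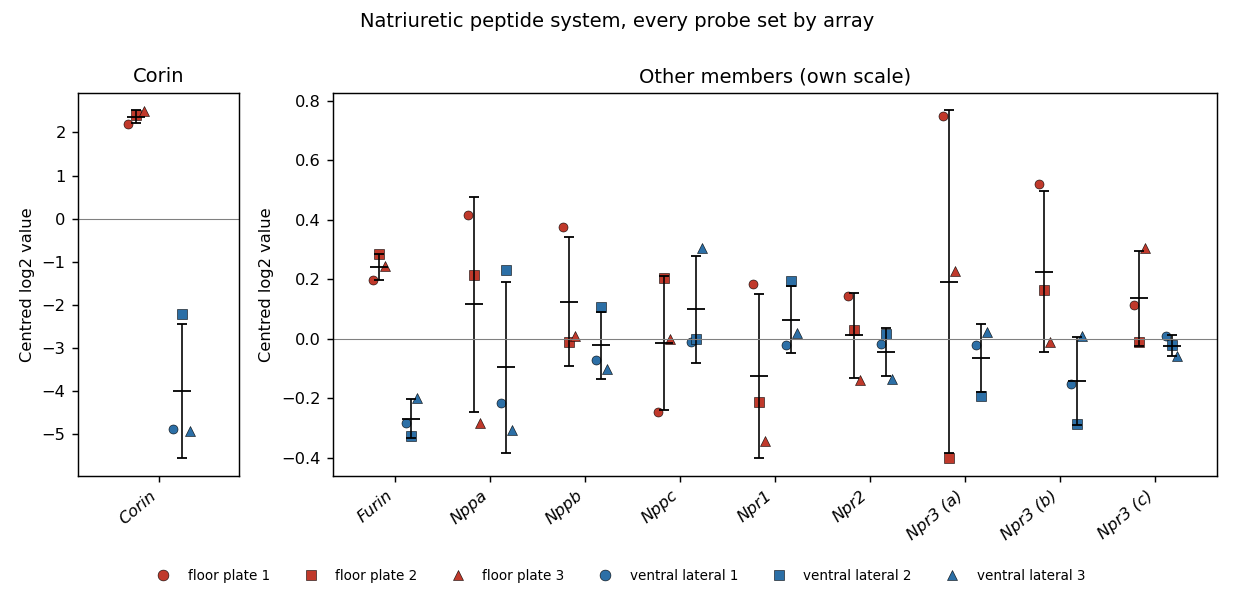
Centred log2 value of every probe set of the 8 genes on each array, with floor plate in red and ventral lateral in blue, symbols for replicates 1, 2 and 3, and bars for the mean and SD (n = 3). Corin has an axis of its own; Npr3 (a), (b) and (c) are probe sets 1435184_at, 1448024_at and 1450286_at. Corin and Furin are the members whose regions do not overlap, with differences of 6.36 and 0.51.

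The bases before the start sites of Corin and Furin are shown because these are the members whose regions lay apart. They are the 250 bases before each start in RefSeq's mouse assembly GRCm38.p6, all on the minus strand, at chr5:72504541-72504790 for Corin, chr7:80402813-80403062 for one start of Furin and chr7:80405437-80405686 for the other. Capitals mark matches, on either strand, to the forkhead cores TGTTTA and TGTTTG, the homeodomain core TAATTA, the Gli motif TGGGTGGTC and the TATA box TATAAA, all chosen with the values known.
Corin: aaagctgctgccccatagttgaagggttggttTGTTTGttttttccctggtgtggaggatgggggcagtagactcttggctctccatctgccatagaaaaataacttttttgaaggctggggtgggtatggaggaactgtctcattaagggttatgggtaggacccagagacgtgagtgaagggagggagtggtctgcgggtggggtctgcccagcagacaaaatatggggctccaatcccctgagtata
Furin (80402813): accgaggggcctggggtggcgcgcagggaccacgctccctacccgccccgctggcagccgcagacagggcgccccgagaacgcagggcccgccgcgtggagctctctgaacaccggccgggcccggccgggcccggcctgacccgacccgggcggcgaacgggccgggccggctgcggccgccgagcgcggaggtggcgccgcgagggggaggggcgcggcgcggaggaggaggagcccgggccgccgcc
Furin (80405437): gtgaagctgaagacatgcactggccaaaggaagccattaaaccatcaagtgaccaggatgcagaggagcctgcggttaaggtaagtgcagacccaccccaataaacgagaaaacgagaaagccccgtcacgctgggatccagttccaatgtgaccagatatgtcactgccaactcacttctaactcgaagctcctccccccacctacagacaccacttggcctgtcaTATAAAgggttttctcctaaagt
In base composition the Corin window is closer to the last Furin window than the windows of Furin are to each other. Corin has 51.2% G and C with 2 CpG pairs, and the windows of Furin have 83.2% with 40 pairs and 50.4% with 6. Corin holds TGTTTG once, 218 bases before the start. TGTTTG was found in 16.0% of 32851 mouse windows of this length, and either of the forkhead cores searched for in 25.3%. The Furin window with 6 CpG pairs holds TATAAA 23 bases before the start. TATAAA was found in 12.4% of all windows, and also in those of Nppa, Nppb and Nppc, at 9, 31 and 29 bases before the start. In each case this describes letters in a window and not a site in use.

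The 3 peptide genes showed no separation between the regions. Nppa, which encodes the precursor of atrial natriuretic peptide, had log2 values (1456062_at) of 0.42, 0.21 and -0.28 in floor plate, against -0.21, 0.23 and -0.30 in ventral lateral tissue. Both regions held high and low samples, with a difference of 0.21 (SE 0.21). Nppb, which encodes the B-type peptide and neighbours Nppa on chromosome 4 with no protein-coding gene between them in the RefSeq table, had values (1450791_at) of 0.38, -0.01 and 0.01 in floor plate, against -0.07, 0.11 and -0.10 in ventral lateral tissue.

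Floor plate replicate 1 was the highest sample for both Nppa and Nppb, and the rest of the values overlapped. The difference for Nppb was 0.15 (SE 0.13). Nppc, which encodes the C-type peptide, the main natriuretic peptide of brain tissue, had values (1422790_at) of -0.24, 0.21 and 0.00 in floor plate, against -0.01, 0.00 and 0.31 in ventral lateral tissue. Its regions overlapped too, and the difference was -0.11 (SE 0.15).

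The receptor genes also overlapped between the regions. Npr1, the cyclase receptor for the atrial and B-type peptides, had values (1449160_at) of 0.18, -0.21 and -0.34 in floor plate, against -0.02, 0.19 and 0.02 in ventral lateral tissue, a difference of -0.19 (SE 0.15). Floor plate replicates 2 and 3 lay below all ventral lateral samples, and floor plate replicate 1 lay among them. Npr2, the cyclase receptor for the C-type peptide, had values (1427191_at) of 0.14, 0.03 and -0.14 in floor plate, against -0.02, 0.02 and -0.14 in ventral lateral tissue. It was the member closest to 0, with a difference of 0.06 (SE 0.11).

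Npr3, the clearance receptor, had differences of 0.16 to 0.37 on its 3 probe sets, which did not all have the same sample highest. Probe set 1448024_at had values of 0.52, 0.16 and -0.01 in floor plate, against -0.15, -0.29 and 0.01 in ventral lateral tissue (difference 0.37, SE 0.15). Probe set 1435184_at had values of 0.75, -0.40 and 0.23 in floor plate, against -0.02, -0.19 and 0.02 in ventral lateral tissue (difference 0.26, SE 0.26). Each of them overlapped between the regions, and floor plate replicate 1 was the highest sample on both.

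On the last Npr3 probe set, 1450286_at, the values were 0.11, -0.01 and 0.31 in floor plate, against 0.01, -0.02 and -0.06 in ventral lateral tissue (difference 0.16, SE 0.11). Here floor plate replicate 3 was highest, and the regions again overlapped. The 3 probe sets together averaged 0.18 ± 0.27 (SD, n = 3) in floor plate, against -0.08 ± 0.08 (SD, n = 3) in ventral lateral tissue.

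Over the whole system, the regions lay apart for 2 of 10 probe sets, Corin and Furin, both higher in floor plate. Among all 45037 probe sets, the regions lay apart for 22.4%, and the floor plate was the higher one for 11.5% and the lower one for 11.0%. The same 2 probe sets passed limma's threshold, as did 4.71% of all, 2.7% as higher and 2.01% as lower in floor plate. The contrast chose Corin, so nothing is read from these counts. Furin passed in no fit that left out 1 sample. The 8 probe sets of the peptide and receptor genes had differences of -0.19 to 0.37, between the 24.7 and 86.7 percentiles of all absolute differences. Their SEs were 0.11 to 0.26, against a median of 0.13 over all probe sets. Without floor plate replicate 1, the Nppc difference turned to 0.0039, that of Npr2 to -0.0095 and that of Npr3 on 1435184_at to -0.022.

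Genes around the natriuretic peptides were examined in 6 lists, covering proteases related to Corin, convertases related to Furin, peptide breakdown, and the synthesis, targets and breakdown of cyclic GMP. Of 138 probe sets for 76 genes, 15 were higher in floor plate and 2 lower, or 12.3%. Among all 45037 probe sets 4.71% passed, 2.7% as higher and 2.01% as lower, and these shares stand beside each list count below. Probe sets of the same gene were counted separately. The calls fell on 12 genes, 10 of them higher and 2 lower. The median difference was 0.08, against -0.0040 over all probe sets. Each p below is limma's, adjusted over all 45037 probe sets.

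None of the membrane serine proteases related to Corin passed the test. The list had 21 probe sets for 17 genes, including inhibitors, with a median difference of -0.06. Of these, 4 had an unadjusted p under 0.05, a level for which no share over all probe sets was computed. St14, which encodes matriptase, was at -0.06 (SE 0.11, adjusted p = 0.861) and Hpn, which encodes hepsin, at 0.0023 (SE 0.13, adjusted p = 0.996). The largest difference in the list was that of Spint2, which encodes an inhibitor of such proteases and is named after its values were seen. On probe set 1451935_a_at it had values of 0.16, 0.44 and 0.80 in floor plate, against -0.40, -0.16 and -0.18 in ventral lateral tissue, which lay apart but missed the threshold (difference 0.72, SE 0.17, adjusted p = 0.0589). Without floor plate replicate 1, 1 Spint2 probe set passed.

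Convertases of the Furin family, listed together with an inhibitor gene, had 3 of 13 probe sets higher and none lower, with a median difference of 0.29. Pcsk5, which encodes a convertase that activates growth factor precursors, rose on 2 of its 5 probe sets. On 1451406_a_at its values were 0.74, 0.37 and 0.77 in floor plate, against -0.53, -0.37 and -0.997 in ventral lateral tissue, with no overlap. The difference of 1.26 (SE 0.19, adjusted p = 0.00886) was 2.39-fold, and 1437339_s_at gave 0.92 (adjusted p = 0.00436). The other 3 did not pass, and 1 of them lay the other way at -0.36. Pcsk6, whose product activates Corin in the mouse heart, had values of 0.56, 0.11 and 0.54 in floor plate, against -0.11, -0.59 and -0.39 in ventral lateral tissue. It passed narrowly (difference 0.76, SE 0.17, adjusted p = 0.0495), and in only 1 of 6 fits that left out a sample, that without floor plate replicate 2 (adjusted p of 0.0308 to 0.156).

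Peptide-degrading enzymes had 3 of 21 probe sets higher and none lower, with a median difference of 0.16. Mme, which encodes neprilysin, a membrane enzyme that degrades natriuretic and other peptides, rose on both of its probe sets. On 1455961_at its values were 1.08, 1.01 and 1.17 in floor plate, against -1.87, -1.01 and -1.50 in ventral lateral tissue. All floor plate samples were far above all ventral lateral ones, with a floor plate mean of 1.09 ± 0.08 (SD, n = 3), against -1.46 ± 0.43 (SD, n = 3) in ventral lateral tissue. The difference of 2.55 (SE 0.20, adjusted p = 0.000591) was 5.84-fold, and the probe set 1422975_at gave 0.79 (SE 0.12, adjusted p = 0.0113). As with Corin, ventral lateral replicate 2 was the highest of its region on both. Ece1, an endothelin-converting enzyme gene, rose on 1 of 3 probe sets (difference 0.50, SE 0.09, adjusted p = 0.0184), but passed in none of the fits without 1 sample (0.0518 to 0.0727).

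**Figure D2:**
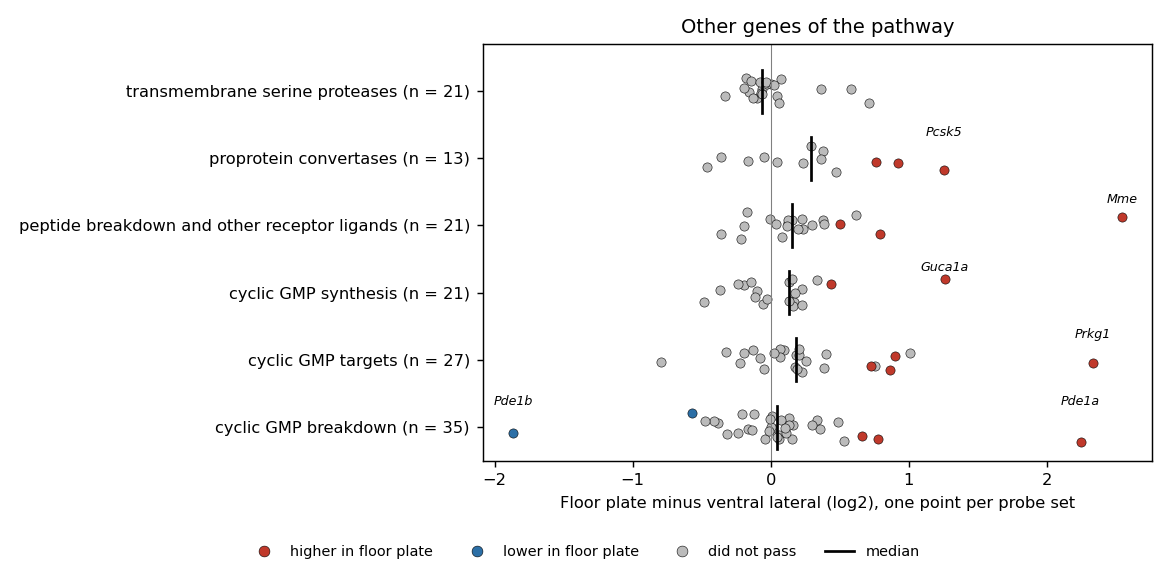
Difference between floor plate and ventral lateral tissue (log2) for each probe set of the 6 lists, with n probe sets beside each name, red for those that passed as higher in floor plate, blue for those lower, grey for those that did not pass, and a bar at the list median. Mme (2.55), Prkg1 (2.33) and Pde1a (2.24) lie at the far right and Pde1b (-1.87) at the far left.

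Cyclic GMP synthesis genes had 2 of 21 probe sets higher and none lower, with a median difference of 0.13. The soluble guanylyl cyclase subunits, which answer to nitric oxide, were not among them. Gucy1a1 had differences of -0.48 to 0.33 on 3 probe sets and Gucy1b1 of 0.13 and 0.17 on 2. The genes that passed encode calcium-sensing activators of retinal guanylyl cyclases. Guca1a had values of 0.63, 0.50 and 0.47 in floor plate, against -1.03, -0.68 and -0.47 in ventral lateral tissue (difference 1.26, SE 0.15, adjusted p = 0.00355). Guca1b rose on 1 probe set (0.44, SE 0.09, adjusted p = 0.0346) and was at -0.23 on the other, and it passed in no fit without 1 sample (0.0796 to 0.117).

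Targets of cyclic GMP had 4 of 27 probe sets higher and none lower, on Prkg1 and Rgs2, with a list median of 0.18. Prkg1, which encodes the type I cyclic GMP-dependent protein kinase, had values of 1.176, 1.064 and 0.999 in floor plate, against -1.575, -1.187 and -0.999 in ventral lateral tissue on 1444232_at. The floor plate samples were close together, the ventral lateral samples were more spread, and the gap between the regions was wide. The floor plate mean was 1.08 ± 0.09 (SD, n = 3), against -1.25 ± 0.29 (SD, n = 3) in ventral lateral tissue, and the difference of 2.33 (SE 0.15, adjusted p = 0.000327) was 5.04-fold. The other Prkg1 probe set gave 0.75 (SE 0.20) and did not pass (adjusted p = 0.0935). Prkg2, the gene of the type II kinase, had differences of -0.80 to -0.20 on 3 probe sets, and none passed.

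Rgs2, which encodes a regulator of G protein signalling that the type I kinase phosphorylates, rose on 3 of 4 probe sets. On 1419247_at its values were 0.26, 0.32 and 0.63 in floor plate, against -0.26, -0.51 and -0.71 in ventral lateral tissue (difference 0.90, SE 0.15, adjusted p = 0.0162). The regions lay apart here. The other probe sets that passed gave 0.87 (1447830_s_at) and 0.73 (1419248_at), and the last was at -0.13. Without ventral lateral replicate 3 the adjusted p was 0.0553 for 1419247_at and 0.0550 for 1419248_at, and without replicate 2 that of 1419247_at was 0.0525, while 1447830_s_at passed in all 6 such fits.

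The phosphodiesterases that break down cyclic GMP went both ways, with 3 of 35 probe sets higher and 2 lower, and a median difference of 0.05. Pde1a and Pde1b encode enzymes that calcium and calmodulin activate and that cleave both cyclic GMP and cyclic AMP. Pde1a had values of 1.37, 0.81 and 1.31 in floor plate, against -1.37, -1.07 and -0.81 in ventral lateral tissue on 1449298_a_at. Its difference of 2.24 (SE 0.19, adjusted p = 0.000882) was 4.74-fold, while its other probe set was at 0.05.

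Pde1b lay the opposite way. It had values of -0.84, -1.13 and -0.86 in floor plate, against 0.85, 0.84 and 1.08 in ventral lateral tissue. The difference of -1.87 (SE 0.12, adjusted p = 0.000321) was 3.65-fold lower in floor plate, on its only probe set.

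Pde5a and Pde9a, which encode enzymes specific for cyclic GMP, also lay opposite ways, while no probe set of the listed Pde6 genes passed. Pde5a, the target of sildenafil, rose on 2 of 3 probe sets. On 1455970_at its values were 0.40, 0.39 and 0.30 in floor plate, against -0.31, -0.62 and -0.30 in ventral lateral tissue (difference 0.78, SE 0.12, adjusted p = 0.00962). Its probe set 1460118_at gave 0.66 (adjusted p = 0.0208) and passed in 2 of 6 fits without 1 sample, each of which left out a replicate 3. Pde9a, a high-affinity enzyme, had values of -0.35, -0.29 and -0.22 in floor plate, against 0.31, 0.31 and 0.22 in ventral lateral tissue. It fell by 0.57 (SE 0.09, adjusted p = 0.0131) and missed the threshold without ventral lateral replicate 1 (adjusted p = 0.0533) or 2 (0.0545).

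**Figure D3:**
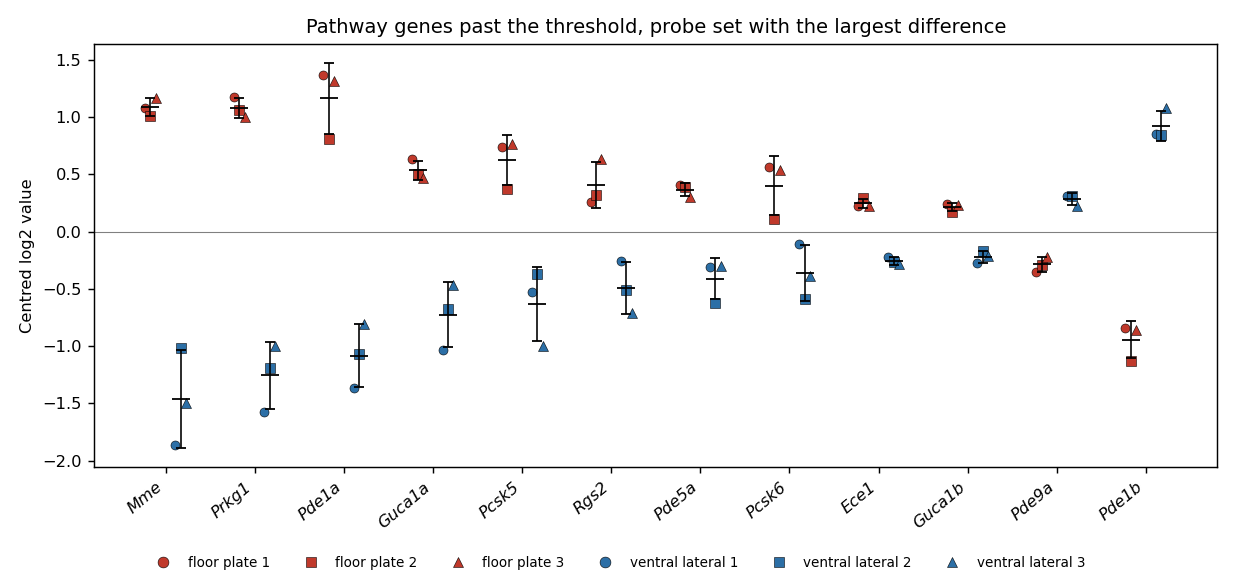
Centred log2 values on each array of the 12 listed genes that passed the test, each on its probe set with the largest difference, with floor plate in red, ventral lateral in blue and bars for the mean and SD (n = 3). In all 12 genes the regions lie apart, with Mme, Prkg1 and Pde1a the widest in one direction and Pde1b in the other.

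Markers of other cells that express these genes were listed beside them. For comparison, 4.71% of all 45037 probe sets passed, 2.7% as higher and 2.01% as lower in floor plate. Of 20 heart muscle probe sets (heart muscle makes the atrial and B-type peptides), 1 was lower in floor plate, Myl3, and none higher. The list means were -0.08 to 0.08 in floor plate samples, against -0.03 to 0.08 in ventral lateral ones. Endothelial markers had 1 of 14 lower, Cldn5, with list means of -0.14 to 0.06 in floor plate samples, against -0.02 to 0.11 in ventral lateral ones. The regions lay apart as lower in floor plate for 3 of the 14 and as higher for 1, against 11.0% and 11.5% of all probe sets. The median difference of the endothelial markers was -0.13. Mural and mesenchymal markers, of cells that often express Prkg1 and Pde5a, had 1 of 31 higher, the bHLH factor gene Twist1 (2.11). Twist1 did not stand for its list, whose median difference was -0.04. The regions lay apart as lower in floor plate for 3 of the 31 and as higher for 1, beside the same shares of all probe sets. List means were -0.26 to 0.22 in floor plate samples, against -0.24 to 0.19 in ventral lateral ones. Of the blood markers 0 of 11 passed in limma, with 0 at an unadjusted p under 0.05, and list means were -0.12 to 0.14 in floor plate samples, against -0.11 to 0.25 in ventral lateral ones. Neuronal markers had 2 of 21 probe sets lower, Nefl and Stmn2, but 13 had an unadjusted p under 0.05. Their regions lay apart as lower in floor plate for 10 and as higher for 3, against 11.0% and 11.5% of all probe sets. The median difference of the neuronal markers was -0.32. Isl1, a motor neuron transcription factor gene, was at 1.43 on both of its probe sets without passing (adjusted p = 0.279 and 0.181). The neuronal list had means of -0.27 to 0.01 in floor plate samples, against -0.12 to 0.15 in ventral lateral ones. At an unadjusted p under 0.05 there were 1 heart muscle, 2 endothelial and 4 mural and mesenchymal probe sets. The share of all probe sets at that level was not computed, so nothing is read from the unadjusted counts. The Myl3, Cldn5, Twist1, Nefl, Stmn2 and Isl1 values were named after their values were seen, and the part of such cells in the results was not tested.

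The genes whose pattern was most like that of Corin were sought among 614 probe sets with 1 symbol and a range of at least 2 on the log2 scale. Likeness was the Pearson correlation over the 6 arrays, which is a description, since the regions alone set most of it. The 8 closest were Cthrc1, which encodes a secreted collagen triple helix protein, Pnliprp1, a pancreatic lipase-related gene, Foxj1, the master regulator of motile cilia, Asb4, Dipk2a, Igfbp2, an insulin-like growth factor binding protein gene, Kcnab1, a potassium channel subunit gene, and Nrp2, a semaphorin receptor gene. Their r was 0.997 to 0.998.

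Cthrc1 was the closest (r = 0.998), with values of 0.974, 0.996 and 1.245 in floor plate, against -2.363, -0.974 and -2.492 in ventral lateral tissue. Foxj1 had 1.22, 1.21 and 1.47 in floor plate, against -2.38, -1.21 and -2.23 in ventral lateral tissue. Nrp2 had 1.23, 1.10 and 1.02 in floor plate, against -2.62, -1.02 and -2.67 in ventral lateral tissue. In all 8 genes ventral lateral replicate 2 was the highest of its region, as in Corin. This follows from choosing them by their likeness to Corin, so nothing is read from it. The differences of these 8 genes were 1.66 to 3.24. They had to be smaller than that of Corin, which has the largest of all probe sets.

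**Figure D4:**
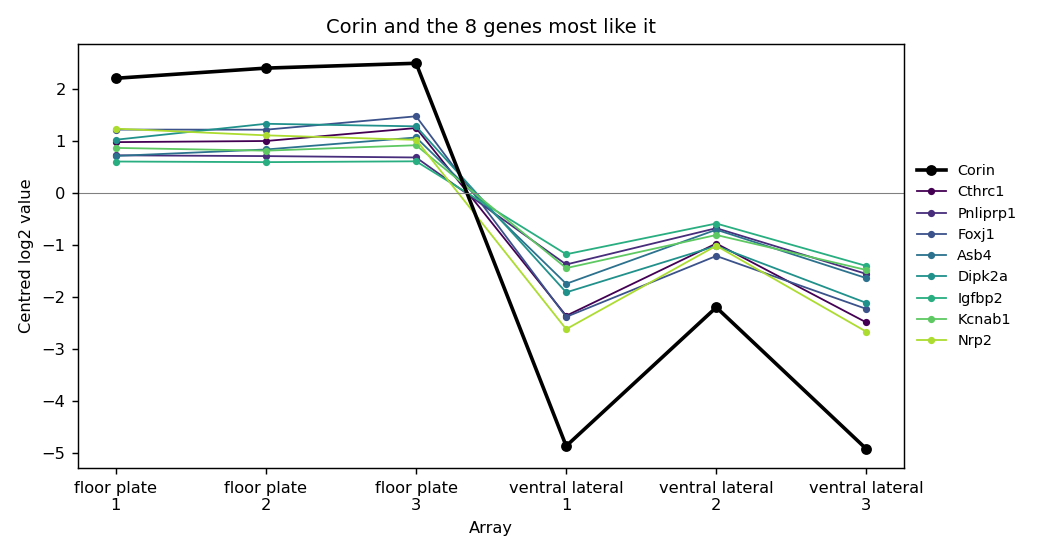
Centred log2 values of Corin (black) and the 8 genes most like it on the 6 arrays; lines join the points of a gene and replicates have no order. Floor plate samples are above 0 and ventral lateral samples below it for each gene, with ventral lateral replicate 2 above replicates 1 and 3.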

How the data were processed

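Values of 45101 probe sets on 6 arrays were used, 64 of them controls that were left out. The deposited values, taken here as log2, were made with RMA, per the submitters' processing notes. No version or centring step is given in the sources used here. The median of the 6 arrays was within 1e-05 of 0 in 100% of probe sets, and array medians were -0.0031 to 0.0045. GEO's platform annotation gave 34945 probe sets 1 symbol, 932 several and 9160 none. List genes with no singly named probe set, Ostn among them, were not analysed here.

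A difference is floor plate minus ventral lateral. It was estimated with limma 3.58.1 (lmFit, then eBayes; R 4.3.3) over all 45037 probe sets, with Benjamini-Hochberg adjustment and a threshold of 0.05. The fit was tested on simulated data. Python 3.11.15 and pandas 2.3.3 made the summaries. Members, lists, motifs and tests were chosen with earlier results of these data known. Named were all member probe sets, up to 4 passing genes per list and direction, 12 listed pathway genes, the 8 genes most like Corin and 5 region markers. Alternatives were quantile normalization, array centring, the replicate number as a block, robust eBayes, a threshold of 0.01, no _x_at or _s_at probe sets, gene means and leaving out each sample. Background correction and a filter on dim probes need signal levels, which centred values do not hold.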

Additional observations from a re-analysis of the deposited data

How the results depend on the processing

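The Corin difference was 6.26 to 6.36 under every other normalization and probe set choice and 5.90 to 7.26 with 1 sample left out, the highest without ventral lateral replicate 2. None of the differences of the other members moved by more than 1 SD in 99 recalculations, though 3 small ones changed sign without floor plate replicate 1. The limit of 1 SD could not be passed in fits that left out 1 of 3 samples of a region. The replicate block returned the same differences by construction, so the count of 99 is no evidence of stability. Counts over all probe sets were 2121 as reported, 957 at a threshold of 0.01, 1904 with the replicate number as a block and 1263 to 1662 without 1 sample (1263 and 1389 without floor plate replicates 1 and 3, 1362 and 1375 without ventral lateral replicates 1 and 3). Same-numbered samples had deviations that correlated at 0.01, 0.12 and 0.11. Floor plate replicates 2 and 3 correlated best with their own number. Floor plate replicate 1 did not, and was near 0 with each (-0.04 to 0.03). The numbers were not taken as pairs, though these values do not settle whether they are. With the replicate number as a block 1 member passed (Corin), as it did without any 1 sample. Under that block 2 protease probe sets (both Spint2) and 1 cyclic GMP synthesis probe set (Guca1a) also passed. At 0.01, counts were 1 for peptide breakdown and 1 for synthesis, 2 for targets and 3 for breakdown of cyclic GMP; on gene means they were 1 for synthesis and 2 for targets. Without 1 sample they were 0 to 1 for proteases, 2 to 3 for convertases, 2 for peptide breakdown, 1 for synthesis, 2 to 5 for targets (2 without ventral lateral replicate 3) and 3 to 6 for cyclic GMP breakdown (3 without ventral lateral replicate 1 or 2). The Pcsk5 probe set at -0.36 turned to 0.49 when the mean of all Pcsk5 probe sets took its place, which mixes it with those that rose. The fits without 1 sample held fewer samples, and those on gene means fewer rows. The threshold of 0.01 and the replicate block used all samples and probe sets. What caused the changes in the counts was not tested. Centred values set a limit to all of this, since signal over background is unknown.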
